A study of Homo sapiens with 36 samples.

Results

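The let-7 family was followed through the small RNA of HEK293T cells that expressed tagged AGO2. These cells, an established human line, derive from embryonic kidney. The family was taken as all rows of the deposited table of mature miRNAs whose name begins with Hsa-Let-7- and which are guide strands, i.e. carry no final asterisk. There were 10 such rows among the 135 rows of the table, and no let-7 passenger strand was listed. Several of the 10 rows hold the same reads. Rows P1d, P2a1 and P2a2 have the same values in 35 of 36 libraries, and P2b1 and P2a3 differ in 1 library, by 2 reads. Counted once, the family comes to 7 members of 121 in the whole table: the P2a3 set (Hsa-Let-7-P2a3_5p and Hsa-Let-7-P2b1_5p), the P2a2 set (Hsa-Let-7-P2a2_5p, Hsa-Let-7-P2a1_5p and Hsa-Let-7-P1d_5p) and the single rows P2c3, P1b, P2c2, P1c and P2b3.

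Cells were co-transfected with a plasmid for GFP and one for Flag/HA-tagged WT-AGO2, for the AGO2 variants F182del, N359H, G604R or D619N, or with the empty vector, which carries the tag without AGO2. Part of each lysate was kept as the input, and the rest was immunoprecipitated with anti-HA beads (IP), so that an IP and an input of the same replicate come from one lysate, spoken of here as a culture. With 3 replicates of 6 constructs in 2 fractions there were 36 libraries in 12 conditions. All AGO2 groups are transiently transfected cells that also hold their own Argonaute proteins.

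Argonaute proteins load one strand of a miRNA duplex, the guide, and the guide's seed, bases 2 to 8 counted from the 5′ end, pairs with target mRNAs. Let-7 was among the first miRNAs to be discovered, is linked to the timing of development, and represses growth-related targets such as RAS and LIN28 mRNAs. LIN28 proteins in turn block the maturation of let-7 precursors, so that let-7 is often scarce in embryonic cells. Human let-7 comes from several loci whose mature guides differ in only a few bases. The sequences show what the members share and how little separates them. RefSeq (GRCh38.p14) lists 12 let-7 loci, counting MIR98, which give 9 distinct mature 5p sequences of 22 bases. Capitals mark the seed, and bases that differ from let-7a-5p are given after the sequences.
hsa-let-7a-5p: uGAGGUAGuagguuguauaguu
hsa-let-7b-5p: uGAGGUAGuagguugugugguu
hsa-let-7c-5p: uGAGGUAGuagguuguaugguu
hsa-let-7d-5p: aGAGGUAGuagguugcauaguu
hsa-let-7e-5p: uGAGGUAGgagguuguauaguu
hsa-let-7f-5p: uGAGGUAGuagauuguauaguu
hsa-let-7g-5p: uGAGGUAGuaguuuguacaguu
hsa-let-7i-5p: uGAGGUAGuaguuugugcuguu
hsa-miR-98-5p: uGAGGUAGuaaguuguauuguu
All 9 have 1 seed in common, with 0 substitutions inside it. Positions are counted from 1 at the 5′ end, with the base of let-7a-5p first. Let-7c-5p (A19G), let-7e-5p (U9G) and let-7f-5p (G12A) each differ from let-7a-5p by 1 base. Let-7b-5p (A17G and A19G), let-7d-5p (U1A and U16C), let-7g-5p (G12U and U18C) and miR-98-5p (G11A and A19U) differ by 2 bases, and let-7i-5p (G12U, A17G, U18C and A19U) by 4. The positions that tell the members apart run from 1 to 19.

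The files do not pair the MirGeneDB names of the rows with these RefSeq names, and none was assigned here. In RefSeq, 3 loci give the sequence of let-7a-5p and 2 loci that of let-7f-5p, and each of the others has 1 locus. The table likewise holds 1 set of 3 rows and 1 set of 2 rows with shared reads, which is a match in number only. The 3 let-7a hairpins lie on chromosome 9 from 94175957 to 94176036 on the plus strand (MIRLET7A1, in an intron of the lincRNA AL158152.2), on chromosome 11 from 122146522 to 122146593 (MIRLET7A2, minus strand, in an intron of MIR100HG) and on chromosome 22 from 46112749 to 46112822 on the plus strand (MIRLET7A3, in an exon of the lincRNA MIRLET7BHG). The 2 let-7f hairpins lie on chromosome 9 from 94176347 to 94176433 on the plus strand (MIRLET7F1, in an intron of AL158152.2) and on chromosome X from 53557192 to 53557274 (MIRLET7F2, minus strand, in an intron of HUWE1). Positions are those of RefSeq and the overlapping genes those of GENCODE, both for GRCh38.

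The deposited values are RPM, i.e. reads scaled to the total reads of a library. All values came in whole multiples of a step, which was taken as 1 read. The reads given here are recovered in this way, and that they are unadjusted counts is not established. Let-7 was measured on few reads. The 15 IP libraries of AGO2 held 4 to 354 let-7 reads (median 47) among 1103 to 29620 mature miRNA reads, and the 18 inputs held 6 to 180 let-7 reads (median 44.5) among 414 to 11402. The 3 IP libraries of the empty vector held 1 to 4 let-7 reads among 170 to 192 mature miRNA reads. A member at 0 may therefore have had a level of up to 3 reads, which in these 3 libraries is 62.4 to 166 RPM. Replicate 1 of the input stands apart for G604R (9395 total reads) and D619N (17118 total reads), and replicate 3 of N359H in IP held only 4 let-7 reads. No guide of 9 searched miRNA families that mark liver, muscle, blood, neurons or fibroblasts was listed in the table. For neurons only Mir-124 was searched. Rows of Mir-128 and Mir-218, which are also linked to neurons, were listed.

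Let-7 was a minor family, with at most 2.80% of the mature miRNA reads of a library. Its leading member ranked between 21 and 37 among the mature miRNAs in the IP of AGO2 and between 16 and 32 in the inputs. In IP of the empty vector it ranked 12, 18 and 9, on 1 to 3 reads. In IP of WT-AGO2, let-7 made up 1.20%, 1.20% and 0.806% of the mature miRNA reads (mean 1.07% ± 0.226, SD, n = 3), against 2.03%, 1.41% and 1.07% in the input (1.50% ± 0.489, SD, n = 3). For F182del the values were 0.909%, 1.16% and 0.932% in IP against 1.62%, 1.46% and 1.19% in the input. Every culture of WT and F182del thus had a lower share in IP than in its own input, and the groups overlapped for WT but not for F182del. The share for N359H was 1.19%, 0.931% and 0.363% in IP against 2.39%, 1.33% and 1.28% in the input. For G604R it was 0.619%, 0.808% and 0.618% against 1.45%, 1.96% and 1.48%. For D619N it was 0.875%, 0.868% and 0.990% against 2.80%, 1.36% and 1.33%. None of these 3 variants had an IP library as high as the lowest of its inputs. The empty vector showed no common direction, with 2.34%, 0.588% and 2.08% in IP, on 1 to 4 reads each, against 1.30%, 1.58% and 1.04% in the input.

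**Figure D1:**
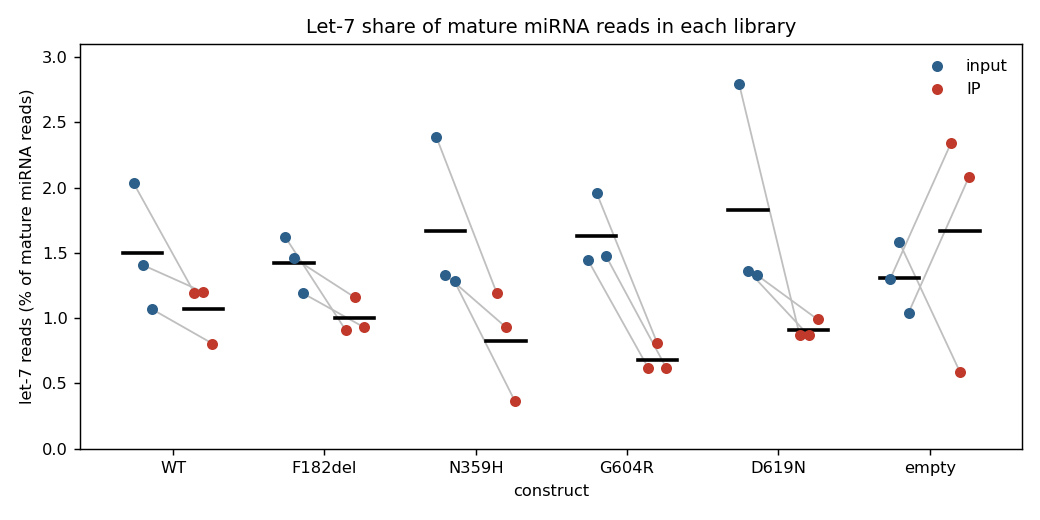
Let-7 reads in percent of the mature miRNA reads of each library (vertical axis) for the 6 constructs; blue points are inputs, red points are IPs, grey lines join both fractions of 1 culture and black bars are means of 3 libraries. In all 15 AGO2 cultures the line falls from input to IP, while those of the empty vector point both ways.

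The share of let-7 was lower in IP than in the input of the same culture in 15 of 15 AGO2 cultures, by a ratio of 0.283 to 0.853 (median 0.588). In 6 of them the 95% Wilson intervals of both shares lay apart. Without the 2 AGO2 cultures in which either library had fewer than 10 let-7 reads (replicate 3 of N359H and replicate 1 of G604R), the count was 13 of 13. The sum over the family is a description and was not tested, and the intervals cover counting error only. On the scale of all reads the direction was the opposite. Let-7 RPM was higher in IP than in the input of the same culture in 13 of 15 AGO2 cultures, by a median ratio of 7.28, since the share of mature miRNA among all reads was itself higher in IP, by a median ratio of 10.7. Let-7 RPM in IP of WT-AGO2 was 1265, 719 and 172, against 109, 31.7 and 23.6 in the input. The 2 exceptions were replicate 1 of G604R and of D619N (RPM ratios of 0.260 and 0.826). There the share of mature miRNA among all reads in IP was 0.609 and 2.64 times that of the input. Their inputs were the shallow ones, and the part of depth in this was not tested.

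The decrease in share was not spread evenly over the family. It was largest for the P2a2 set among the 4 members listed in at least 13 of the 15 IP libraries of AGO2 (the P2a2 and P2a3 sets, P2c3 and P1b). In IP of WT-AGO2 this set made up 0.118%, 0.211% and 0.0514% of the mature miRNA reads, against 0.757%, 0.501% and 0.420% in the input. For F182del it made up 0.0816%, 0.290% and 0.0857% in IP against 0.508%, 0.634% and 0.368% in the input. For N359H the values were 0.110%, 0.150% and 0.0907% against 0.863%, 0.474% and 0.366%. In these 3 constructs every IP library lay below every input library. For G604R the set stood at 0.116%, 0.231% and 0.0562% in IP against 1.21%, 0.626% and 0.467% in the input. For D619N it stood at 0.211%, 0.237% and 0.156% against 1.33%, 0.546% and 0.519%. There was no overlap in these groups either. How many of the other rows lay apart in this way was not counted, so the lack of overlap is a description. In the empty vector the set did not lie lower in IP, with 1.17%, 0.588% and 0.521% on 1 or 2 reads each against 0.434%, 0.533% and 0.453% in the input.

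Across the 15 AGO2 cultures the share of the P2a2 set in IP was a median of 0.233 times that of the own input (0.0961 to 0.458), and it was lower in 15 of 15, or in 13 of 13 without replicate 3 of N359H and replicate 1 of G604R. Of the 121 members of the table, 28 were above 0 in all 15 AGO2 inputs and could thus be lower in IP in every culture. Of these 28, 6 were, and the P2a2 set was 1 of these 6. RPM were scaled between libraries by median-of-ratios factors and tested with limma on log2(RPM + 1). Rows were called at an adjusted p below 0.05 and a log2 fold change beyond 1. In WT-AGO2, 12.2% of the 115 rows tested were called between IP and input, and 2 of 7 let-7 members. The P2a2 set was lower in IP with a log2 fold change of -1.98 (SE 0.52, adjusted p = 0.0228), beside a median of 0.31 over all rows tested and of -0.55 over the let-7 members. In F182del, 24.0% of rows were called and 1 of 5 members, the P2a2 set, with a log2 fold change of -1.55 (SE 0.50, adjusted p = 0.0251). In N359H, 11.9% of rows were called and 1 of 7 members, again the P2a2 set, with -1.96 (SE 0.59, adjusted p = 0.0234). In G604R, 8.42% of rows were called and 0 of 4 members, although the estimate for the P2a2 set was -2.25 (SE 0.60, adjusted p = 0.0837). In D619N, 14.0% of rows were called and 1 of 6 members, which was not the P2a2 set (-1.36, SE 0.48, adjusted p = 0.102).

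These calls were near the threshold. In WT the call was lost without IP replicate 1 (adjusted p = 0.0885), IP replicate 3 (0.0508), input replicate 1 (0.0661) or input replicate 2 (0.0572). In F182del it was lost without IP replicate 1 (adjusted p = 0.240), IP replicate 3 (0.0919) or input replicate 2 (0.121), and in N359H without IP replicate 2 (0.0542), input replicate 1 (0.213) or input replicate 2 (0.105). On RPM as deposited, where the median of all rows moved to 3.73 in WT, 2.74 in F182del and 2.99 in N359H, the log2 fold change of the P2a2 set was 1.73, 1.48 and 1.50, above 0 but below these medians. The directions given here are thus relative to the other miRNAs of a library.

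The P2a3 set went another way. It made up 0.635%, 0.519% and 0.377% of the mature miRNA reads in IP of WT-AGO2, against 0.576%, 0.286% and 0.267% in the input. Its share was higher in IP than in the own input in 9 of the 15 AGO2 cultures and lower in 6, with a median ratio of 1.10 (0.340 to 1.81). No AGO2 construct had it called between IP and input on the scaled values. The log2 fold change was 0.74 in WT (95% interval -0.12 to 1.59), 0.51 in F182del (-0.17 to 1.18), 0.00 in N359H (-0.88 to 0.88), 0.42 in G604R (-0.76 to 1.60) and 0.02 in D619N (-1.11 to 1.15).

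The order of both sets differed between the fractions. In the inputs the P2a2 set was the leading member in 11 of 15 AGO2 cultures, and it held a median of 36.2% of the let-7 reads, against 26.3% for the P2a3 set. In IP the P2a3 set led in 15 of 15 cultures and held a median of 50.0% of the let-7 reads, against 16.1% for the P2a2 set. The P2a2 set holds 3 rows and the P2a3 set 2, and each set was counted once. Which set leads, the percentages and the level of the ratio depend on this choice. The order with all rows summed was not computed. Reads of the P2a3 set per read of the P2a2 set came to 5.37, 2.46 and 7.33 in IP of WT-AGO2, and to 0.761, 0.571 and 0.636 in the input. F182del had ratios of 6.43, 1.78 and 6.60 in IP against 1.13, 0.606 and 1.23, and N359H had 5.43, 2.78 and 3.0 against 0.706, 0.870 and 1.13. The IP libraries lay above the inputs in each of these constructs. G604R had 2.67, 2.0 and 6.50 in IP against 0.200, 0.813 and 0.667, and D619N had 1.71, 1.17 and 3.0 against 0.800, 0.600 and 0.688. D619N thus had the lowest mean ratio in IP of the AGO2 constructs, 1.96 ± 0.941 (SD, n = 3) against 5.06 ± 2.45 in WT, but its libraries overlapped those of WT. The empty vector had ratios of 1.0, 0 and 3.0 in IP, on at most 4 reads of both sets together, and of 1.13, 1.04 and 0.519 in the input.

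**Figure D2:**
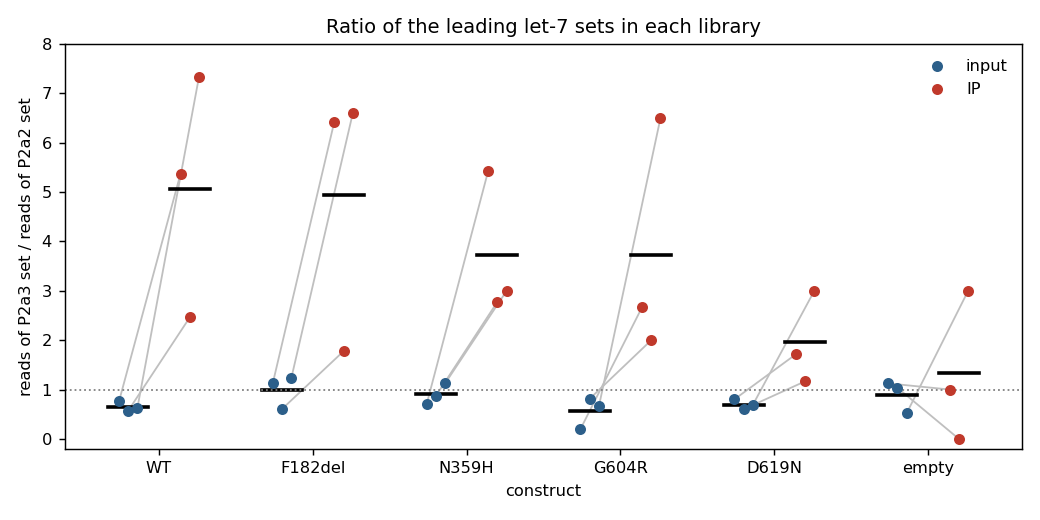
Reads of the P2a3 set divided by those of the P2a2 set in each library (vertical axis, linear) for the 6 constructs; blue points are inputs, red points IPs, grey lines join both fractions of 1 culture, black bars are means of 3 libraries and the dotted line marks a ratio of 1. All 15 AGO2 cultures rise from input to IP, from 0.200 to 1.23 up to 1.17 to 7.33.

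The ratio was higher in IP than in the own input in 15 of 15 AGO2 cultures, by 1.94- to 13.3-fold (median 4.36-fold), and in 7 of them the Wilson intervals of the P2a3 set's part of both sets lay apart. It was also higher in 13 of 13 without replicate 3 of N359H and replicate 1 of G604R. Both sets come from the same library, so that depth and the share of miRNA among all reads divide out. The pair was picked after the values were seen, and the ratio is given as a description. How the authors' program divides a read among rows with the same sequence is not stated, and its part in the ratio was not tested.

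**Figure D3:**
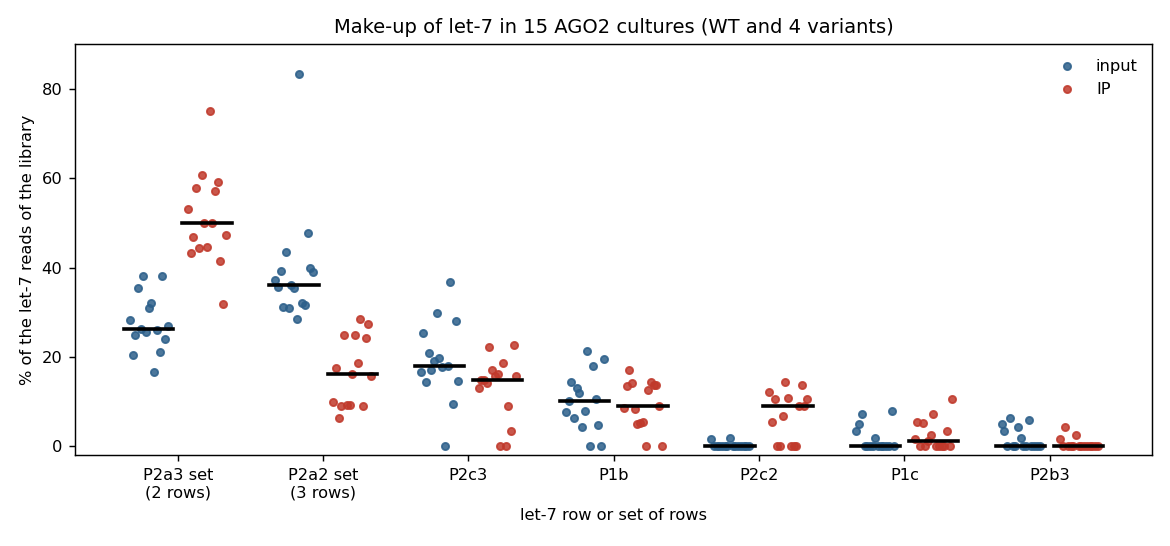
Part of each let-7 row or set among the let-7 reads of a library, in percent, for the 15 AGO2 cultures; blue points are inputs, red points IPs and black bars medians. The P2a3 set has its median at 26.3% in the inputs and 50.0% in IP, the P2a2 set at 36.2% and 16.1%.

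The remaining members had fewer reads. P2c3, with 147 reads over the 15 IP libraries of AGO2 and 160 over their inputs, had a lower share in IP in 13 of 15 cultures. Its median ratio was 0.479 over the 14 cultures with reads in the input. P1b, with 94 and 82 reads, was lower in IP in 11 of 15, with a median ratio of 0.541 over the 13 with reads in the input. The cultures left out of these medians were higher in IP. Neither was called between IP and input in an AGO2 construct with median-of-ratios scaling. Scaled to the mature miRNA total, P2c3 was called lower in N359H (log2 fold change -2.64, adjusted p = 0.0456). On RPM as deposited both were called higher in IP in WT and F182del. The log2 fold change of P2c3 was -0.55 in WT (adjusted p = 0.432) and -2.43 in N359H (adjusted p = 0.138), and that of P1b was 0.05 in WT (adjusted p = 0.958).

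P2c2 was the member found mainly in IP. It was listed in 10 of 15 IP libraries of AGO2, with 94 reads, and in 2 of their 15 inputs, with 6 reads. Its reads were 43, 4 and 5 in IP of WT-AGO2 against 3, 0 and 0 in the input, 8, 2 and 2 in IP of D619N against 0, 0 and 0, and 11, 6 and 0 in IP of N359H against 0, 3 and 0. For F182del and G604R only replicate 3 in IP had reads, 11 and 2, and none of the inputs did. P2c2 was called higher in IP in WT (adjusted p = 0.0439) and in D619N (adjusted p = 0.0326), the other let-7 call in these comparisons. In both constructs P2c2 met the filter through the IP libraries alone. A call could thus only be higher in IP, and these adjusted p-values are no support for enrichment. In WT it made up 0.145%, 0.0649% and 0.0857% of the mature miRNA reads in IP, while 3 reads are 0.0339%, 0.0715% and 0.115% in the inputs, so that a higher share in IP was seen beyond this limit in replicate 1 alone. The fitted log2 fold change in WT ran from 1.04 to 5.22 over the alternatives and is no measure of size. The D619N call has all inputs at 0, and no fold is given for it. There P2c2 made up 0.121%, 0.0789% and 0.104% of the mature miRNA reads in IP, while 3 reads are 0.399%, 0.164% and 0.0972% in the inputs, so that a higher share in IP was seen beyond this limit in replicate 3 alone, on 2 reads. With the replicate number as a block, which pairs each IP with its own input, the D619N call was lost (adjusted p = 0.105), as it was without input replicate 2 (adjusted p = 0.0570). The WT call was lost without IP replicate 1 (adjusted p = 0.124), IP replicate 2 (0.0584), IP replicate 3 (0.0690), input replicate 2 (0.125) or input replicate 3 (0.117).

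P1c and P2b3 were at the limit of detection. P1c had 26 reads over the 15 IP libraries of AGO2 and 16 over the inputs, and P2b3 had 10 and 22. P1c was at 0 in all IP and input libraries of G604R, and P2b3 was listed in IP for WT (6, 0 and 2 reads) and for replicate 1 of N359H (2 reads) but at 0 in the IP libraries of F182del, G604R and D619N. A difference of such rows between constructs was not detectable at this depth.

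The variants were next compared with WT-AGO2 in IP. No let-7 member was called for F182del, where 6.56% of the 122 rows tested were called, for N359H, with 0.0% of 112 rows, for G604R, with 5.36% of 112, or for D619N, with 16.1% of 112. All 7 members were tested in each. At an unadjusted p below 0.05 there was 1 member for F182del (P2c2), beside 25 of the 122 rows tested. There were 3 for G604R (P2c2, P1c and P2b3), beside 16 of 112 rows. There were 0 for N359H and D619N, beside 7 and 39 of 112 rows. P2c2 in F182del and all 3 members in G604R passed the filter through WT alone. A difference there could in effect only be lower, and these p-values are no support for one. The median log2 fold change over the members was -0.38 for F182del, -1.17 for N359H, -2.24 for G604R and -0.42 for D619N, beside -0.04, -0.59, -0.42 and -1.28 over all rows. The median was the value of P1c for F182del and of P2b3 for N359H and G604R, members at the limit of detection. These medians are therefore no measure of a change of the family. The P2a3 set, which had the most reads in IP, gave the narrowest intervals. Its log2 fold change against WT was 0.10 for F182del (95% interval -0.51 to 0.71), -0.20 for N359H (-1.06 to 0.66), -0.59 for G604R (-1.31 to 0.13) and -0.42 for D619N (-1.17 to 0.32). A change beyond the threshold of 1 lies outside the interval for F182del, and inside it for the other 3. The P2a2 set had wider intervals, with 0.22 for F182del (-1.35 to 1.78), 0.16 for N359H (-1.85 to 2.17), -0.10 for G604R (-2.09 to 1.89) and 0.90 for D619N (-0.62 to 2.42).

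The results for G604R and P2c2 rested on single libraries. G604R had 14 to 22 let-7 reads per IP library. Without WT replicate 2, P2b3 was called lower for G604R (adjusted p = 0.000916) and for D619N (adjusted p = 0.000152), and without WT replicate 3 P1c was called lower for G604R (adjusted p = 0.00692). Leaving out replicate 3 of the variant, the only one with reads of P2c2, gave a call for this member in F182del (adjusted p = 0.0302) and in G604R (adjusted p = 0.0243). All of these calls have the variant at 0 in the libraries used. The members passed the filter through WT alone there, so a call could only be lower.

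**Figure D4:**
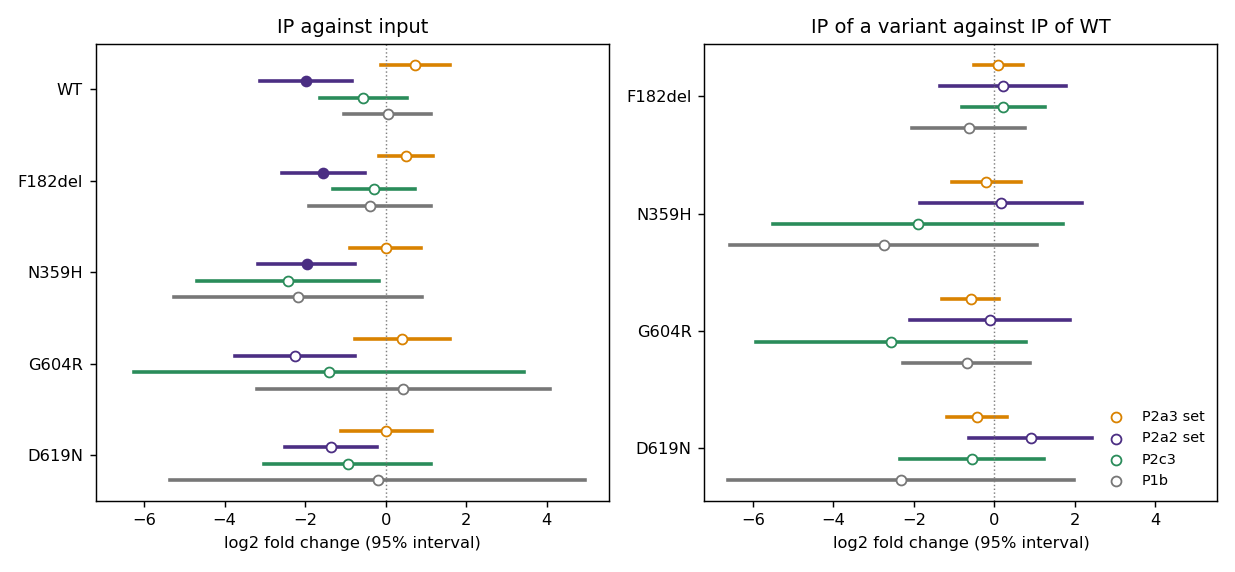
Log2 fold changes from limma (horizontal axis) with 95% intervals for the 4 let-7 members listed in at least 13 of the 15 IP libraries of AGO2, IP against input on the left and IP of a variant against IP of WT on the right; filled points were called. The P2a2 set lies below 0 for all 5 AGO2 constructs on the left, and no member was called on the right.

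In the inputs no let-7 member was called for F182del, N359H, G604R, D619N or the empty vector against WT, and 0.0% of the rows tested were called in each of the 5 comparisons. Of the 6 members tested in each, only P1c had an unadjusted p below 0.05 for F182del, beside 8 of 105 rows, and for G604R, beside 12 of 97. In the other comparisons 0 members had one. P1c was at 0 in all inputs of F182del and G604R and passed the filter through WT alone. It could thus only be lower, and these p-values are no support for a difference. P1c, at 0 in all inputs of G604R, was called lower there without WT replicate 1 (adjusted p = 0.00441), 2 (0.000859) or 3 (0.000271). It held 3.65, 1.61 and 1.68 RPM in the WT inputs, while 3 reads are 319, 2.59 and 5.21 RPM in those of G604R. P2b3, at 0 in all inputs of D619N, was called lower there without WT replicate 3 (adjusted p = 0.00436). It held 5.47, 1.07 and 0 RPM in the WT inputs, while 3 reads are 175, 4.71 and 3.28 RPM in those of D619N. Both members passed the filter through the WT inputs alone, so a call could only be lower. The WT levels were partly below what could be seen in the variant, and these calls are no support for a difference. The let-7 share of the inputs lay between 1.04% and 2.80% over all 18 libraries.

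Whether the variants differed from WT in the step from input to IP was tested as an interaction of construct and fraction. No let-7 member was called for any variant, where 0.806% of the 124 rows tested were called for F182del, 0.0% of 119 for N359H, 1.68% of 119 for G604R and 4.31% of 116 for D619N. P1c for F182del was the only member with an unadjusted p below 0.05, beside 15 of the 124 rows tested there. It was at 0 in all inputs of F182del. The interaction estimate of the P2a2 set was 0.38 for F182del (95% interval -1.23 to 1.98), 0.01 for N359H (-1.62 to 1.64), -0.31 for G604R (-2.20 to 1.57) and 0.60 for D619N (-1.11 to 2.31). These intervals hold both no difference and a 2-fold one, and a difference between the variants and WT was not detectable at this depth.

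The empty vector is the background of the pulldown. In its IP libraries the P2a2 set had 2, 1 and 1 reads, the P2a3 set 2, 0 and 3, and the other 5 members were at 0. Against IP of WT-AGO2, 60.0% of the 110 rows tested were called, all lower, and 3 of 7 members (P2c3, P1b and P2c2). The P2a2 set had an estimate in the other direction and was not called (log2 fold change 2.29, SE 0.87, adjusted p = 0.0640), on 1 or 2 reads per library of the empty vector. It was called higher in the empty vector with a pseudocount of 10 RPM (adjusted p = 0.0283), without a filter (0.0491), scaled to the mature miRNA total (0.0436), with rows of shared reads merged (0.0484), without WT replicate 2 (0.0440) and without replicate 3 of the empty vector (0.0405). WT had 46, 11 and 7 reads of P2c3, or 164, 107 and 25.6 RPM, and 107, 97.1 and 29.2 RPM of P1b. Since 3 reads are 62.4 to 166 RPM in IP of the empty vector, these levels are partly below what could be seen there, and no fold is given. P2c3, P1b and P2c2 passed the filter through WT alone, so a call could only be lower. Against the own input, 42.4% of the 92 rows tested were called in the empty vector, and 3 of 6 members (P2c3, P1c and P2b3) were called lower in IP, as were 40.2% of all rows tested, again with the IP at 0 on 170 to 192 mature miRNA reads. P2c3, P1c and P2b3 passed the filter through the inputs alone here, so a call could only be lower.

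The rows with the pattern most like that of let-7 over the 12 conditions were found by the Spearman correlation of mean shares of mature miRNA reads, among 80 other guide rows. They were Hsa-Mir-378_3p (rho = 0.811), Hsa-Mir-101-P1-v1_3p (rho = 0.797) and Hsa-Mir-221-P2a_3p (rho = 0.762), with a median rho of 0.0139 over all 80. Shares in a library add up to a whole, and the 12 means share libraries with those of let-7, so the correlations are a description. In WT-AGO2, Hsa-Mir-378_3p had a mean share of 2.09% in the input and 2.19% in IP, and Hsa-Mir-101-P1-v1_3p one of 0.407% and 0.231%. Hsa-Mir-221-P2a_3p had a mean share of 0.979% in the input and 0.238% in IP of WT-AGO2, and it was, like the P2a2 set, among the 6 members that were lower in IP in all 15 AGO2 cultures.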

How the data were processed

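Small RNA libraries of HEK293T cells were analysed from the table that the authors deposited. Per the labels and the study's methods, reads were processed with sRNAbench and the MirGeneDB annotation, the genome build GRCh38 is named in the submitters' processing notes, and the values are RPM, relative to the total reads of a library. What minExpr1 and RCadj in the name of the table stand for, and how reads shared by several rows were divided, is not given in the sources used here. The deposited RPM were whole multiples of a step taken as 1 read (100% of values, within 0.02 reads). From it depth, Wilson intervals (95%) and limits of 3 reads were computed. A count model was not used, because too few low values are held to establish unadjusted counts.

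Of the 135 rows, 22 form 11 sets with identical values, which leaves 124 rows for the fits. For sums and member counts, rows of one family with the same reads in at least 80% of libraries were also merged, which leaves 121. This merging was chosen after the values were seen. The members and lists were chosen with earlier results of these data known. Named are all let-7 guide rows, let-7 passenger rows (0 listed) and the 3 other guide rows with the highest Spearman correlation to the let-7 share over conditions.

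RPM were scaled by median-of-ratios factors, and rows were tested, if their scaled RPM reached 1 in 2 or more of the 3 libraries of either group, on log2(RPM + 1) with limma 3.58.1 (lmFit, eBayes with trend) in R 4.3.3, two-sided, with Benjamini-Hochberg adjustment over all rows tested. A fold change on this scale understates that of low rows. The fit was checked on simulated data, where recovery of changes was required only at a depth far above that of these libraries. How well changes are found at the real depth is not reported here. Groups and replicate numbers are those of the sample titles. Nothing says that replicates are separate cultures beyond their numbers, so p-values measure the spread between these samples. A chi-square test found no difference in 3 of 36 replicate pairs, all from the empty vector's IP, and these were kept as separate libraries since 0 pairs were identical. IP and input of a replicate share a lysate by the study's methods. Deviations of IP and input libraries with the same number from their group means did not correlate above 0.1 in all 3 replicates of any construct. Between a variant and WT they did so for F182del in IP and in the input and for the empty vector in the input. Alternatives were other pseudocounts, filters and scalings, other ways to count shared rows, a joint fit of the AGO2 groups, a block for the replicate number, and each library left out. The miRNA sequences are from RefSeq and isomiRs were not analysed here.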

Additional observations from a re-analysis of the deposited data

How the results depend on the processing

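Let-7 members called are counted out of up to 7. A pseudocount of 0.1 RPM gave 1 member called for the input of G604R against WT (0 as reported), 1 for IP against input in WT (2 as reported) and 0 in F182del (1 as reported). A pseudocount of 10 RPM gave 1 for IP against input in G604R (0 as reported) and 0 in the empty vector (3 as reported). Requiring a mean of at least 10 RPM gave 1 for IP against input in WT and 0 in the empty vector, where fewer members were tested. Without a filter IP against input in D619N gave 0 (1 as reported). With the replicate block it also gave 0, and the block changed the let-7 count of no other comparison. On RPM as deposited, IP against input gave 4 in WT and 4 in F182del, and the log2 fold change of the P2a2 set turned to 1.73 in WT, 1.48 in F182del, where it was now called higher (adjusted p = 0.0192), and 1.50 in N359H, since the median of all rows moved with it. Scaling to the mature miRNA total gave 1 in WT, 2 in N359H and 2 in D619N.

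Leaving out each library gave 0 to 1 members in IP against WT for F182del, G604R and D619N and 3 to 5 for the empty vector (5 without WT replicate 2, of which the P2a2 set was higher in the empty vector), 0 to 1 in the input for G604R and D619N, and 0 to 1 for IP against input in WT, F182del, N359H and D619N. The other counts, and the interactions throughout, stayed within 1.5 times. Over all rows, the calls ranged with the alternatives from 0 to 10 for F182del in IP (8 as reported), 0 to 3 for N359H (0), 0 to 12 for G604R (6), 10 to 27 for D619N (18) and, in the empty vector, 34 to 89 (66), from 0 to 11, 0 to 5 and 0 to 1 in the inputs of G604R, D619N and the empty vector (0 each), from 5 to 92 for IP against input in WT (14), 16 to 85 in F182del (29), 2 to 43 in N359H (13), 0 to 24 in G604R (8), 2 to 19 in D619N (13) and 8 to 63 in the empty vector (39), and from 0 to 6, 0 to 1, 0 to 4 and 1 to 7 for the interactions of F182del, N359H, G604R and D619N (1, 0, 2 and 5).

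The ratio of mean let-7 shares, IP over input, was 0.710 in WT, 0.702 in F182del, 0.497 in N359H, 0.419 in G604R, 0.498 in D619N and 1.28 in the empty vector. With all reads as denominator it was 13.1, 8.08, 4.44, 0.609, 1.87 and 3.51, and the ratio of IP to IP of WT was 0.437 for F182del (0.938 as reported), 0.202 for G604R (0.639), 1.14 for D619N (0.854) and, in the empty vector, 0.179 (1.57). The means for the inputs of G604R and D619N on all reads include their shallow replicate 1. By culture, IP over input on all reads was 0.260, 3.40 and 3.71 in G604R and 0.826, 7.65 and 25.5 in D619N. In G604R, whose 3 cultures were closest together in the share of mature miRNA reads, the ratio of mean let-7 shares also moved by more than their spread. It was 0.386 with all rows summed, 0.432 with guide rows only as denominator and 0.439 with only identical rows counted once. With single libraries left out it was 0.380 to 0.466. In WT it was 0.620 to 0.862, the highest without input replicate 1. The cause of these moves was not tested. The planned count test with edgeR was not run, because the table holds too few low values to establish that the reads are unadjusted counts. Depth limits all of these results, since a member at 0 may have had a level of up to 3 reads.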
